A study of Mus musculus with 3 samples.

Results

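The EGF family ligands and the ErbB receptors were followed in the mouse utero-tubular junction, a short constriction joining the uterine horn to the oviduct. All probes other than controls whose gene name in the files was Egf, Tgfa, Areg, Ereg, Btc, Hbegf, Nrg1, Egfr, Erbb2 or Erbb3 were taken, which gave 10 genes of the 27670 named on the array and 27 of its 41174 probes. The 7 ligand genes had 14 probes and the 3 receptor genes had 13. The rule used no measured value.

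Total RNA came from adult CD-1 females, an outbred stock, all in estrus. One array held RNA from females mated with normal males, 1 from females mated with vasectomized males, whose semen carries no sperm, and 1 from females that had not mated. Each array was hybridised with 1 pool of 10 females, so there was 1 array per group, no test was possible, and every difference below is between 3 pools. How long after mating the tissue was taken is not stated in the labels. The series set out to compare each pair of these conditions.

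EGF family ligands are made as membrane-anchored precursors, and metalloproteases of the ADAM family cut them free. Amphiregulin (Areg), transforming growth factor alpha (Tgfa) and Egf itself bind Egfr, betacellulin (Btc), heparin-binding EGF (Hbegf) and epiregulin (Ereg) bind Egfr and Erbb4, and neuregulin 1 (Nrg1) binds Erbb3 and Erbb4. Bound receptors pair up and signal through the Ras, ERK and PI3 kinase pathways, with Erbb2 as a partner that has no known ligand of its own and Erbb3 as one with little kinase activity. In the mouse female tract Hbegf is known from the uterine epithelium beside the implanting embryo, Areg from the progesterone response of that epithelium, and Areg, Ereg and Btc from the ovarian follicle, where they pass the ovulatory signal to the cumulus cells.

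RefSeq sequence upstream of the annotated start was read for 6 of the 10 genes, as 7 windows on GRCm38.p6. No window was read for Hbegf, Ereg, Nrg1 or Erbb3, so the motif statements below do not cover these genes. The 250 bases before the start are shown for Areg and Btc, the ligands with the largest ratios after normal mating, and for Tgfa, the ligand with the lowest ratio after either mating, each by its brightest probe. Letters are written 5′ to 3′ on the strand of the gene. Capitals mark matches to the cAMP response element TGACGTCA and to the TATA box TATAAA.
Areg, chr5:91139349-91139598, plus strand: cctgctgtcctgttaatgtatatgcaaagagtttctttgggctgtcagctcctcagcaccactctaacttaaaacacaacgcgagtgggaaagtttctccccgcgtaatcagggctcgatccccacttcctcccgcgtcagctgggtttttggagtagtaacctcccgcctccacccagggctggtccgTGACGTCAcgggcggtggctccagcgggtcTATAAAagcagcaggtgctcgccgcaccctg
Btc, chr5:91402995-91403244, minus strand: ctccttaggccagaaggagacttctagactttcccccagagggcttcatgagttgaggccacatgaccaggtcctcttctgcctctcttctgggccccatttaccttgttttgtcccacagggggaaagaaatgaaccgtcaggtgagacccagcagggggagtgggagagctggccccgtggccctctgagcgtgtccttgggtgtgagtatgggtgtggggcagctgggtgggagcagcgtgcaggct
Tgfa, chr6:86194972-86195221, plus strand: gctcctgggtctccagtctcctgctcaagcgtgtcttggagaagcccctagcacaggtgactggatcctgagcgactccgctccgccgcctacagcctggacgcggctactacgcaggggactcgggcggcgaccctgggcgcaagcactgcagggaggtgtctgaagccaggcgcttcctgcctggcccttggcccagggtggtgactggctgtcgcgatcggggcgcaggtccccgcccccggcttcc
The Areg window holds TGACGTCA beginning 61 bases before the start and TATAAA beginning 31 bases before it. With both strands read, TGACGTCA occurs in 1.55% of 32851 mouse windows of this length and TATAAA in 12.4%. Neither motif occurs in the Btc or Tgfa window, nor in those of Egf, Egfr and Erbb2. The AP-1 motif TGANTCA, present in 6.75% of all windows, occurs in none of the 7. The GC box GGGCGG, present in 32.7%, occurs in the windows of Areg, Tgfa and Egfr, and in Areg it begins 52 bases before the start. A match describes these letters only.

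Fluorescence was scaled to the 75th percentile of each array, and a level below is a multiple of that percentile. The percentile stood at a signal of 708 after normal mating, 295 after vasectomized mating and 874 without mating, while the median of the 320 spike-in control spots was 2340, 4360 and 1900 in the same order of arrays. The vasectomized-mated array therefore stood apart, with dim sample signal and bright spike-ins. Scaling to the spike-ins in place of the percentile moved the median log2 ratio over all genes to -0.68 for normal mated over not mated (main value -0.05) and to -2.65 for vasectomized mated over not mated (main value 0.18). Directions below are relative to the array's 75th percentile. The spike-in value is given for each family member it turned, and for the pathway and cell type lists the counts with spike-in scaling are given at the end of their account. Probes from different places on 1 transcript also disagreed on that array: for 2989 transcripts with probes at least 500 bases apart, 48.5% of the ratios to the not mated array differed by over 2-fold between the most 3′ and the most 5′ probe, and the 3′ probe was higher in 64.1%. For normal mated over not mated only 5.09% of 3361 transcripts differed that much, and the 3′ probe was higher in 51.6%. RNA was primed with oligo-dT, per the labels' protocols. The share of non-control spots well above background, a flag of the scanner software, was 70.7%, 65.9% and 68.0% on the normal-mated, vasectomized-mated and not mated arrays.

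After mating with a normal male, 4 of the 9 family members that could be compared were at least 2-fold higher than in the females that had not mated, and none was lower by that much. All 4 were ligands: Areg, Btc, Hbegf and, by its brightest probe alone, Nrg1. Over all 19304 genes compared, 9.81% passed that threshold upwards and 13.2% downwards. The median log2 ratio was 1.101 over the 6 ligands compared, -0.24 over the 3 receptors and -0.05 over all genes. That ligand median lies between Hbegf at 1.02 and the Nrg1 bound at 1.18, so it depends on the probe that stands for Nrg1. The brightest probe was chosen by signal over all arrays, the mated ones included. By the median over its probes Nrg1 was at -1.095 after normal mating. After mating with a vasectomized male, 5 of 9 members were at least 2-fold higher (Areg, Btc, Hbegf, Nrg1 and Egfr) and Tgfa was lower. In that comparison 25.8% of 19312 genes were higher and 16.5% lower, so high values were common across the array. Its median was 1.71 over the 6 ligands, 0.25 over the receptors and 0.18 over all genes. With spike-in scaling 1 member remained at least 2-fold higher in each of these comparisons, Areg after normal mating and Nrg1 after vasectomized mating, while 3 and 6 members were lower. Over all genes, 948 of 18904 were then higher and 6189 lower after normal mating. After vasectomized mating 196 of 18670 genes were then higher and 16684 lower. Both comparisons use the same not mated array. Where a gene had 1 array below background, its ratio is a bound, written "at least", and it is counted as higher or lower by that bound.

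**Figure D1:**
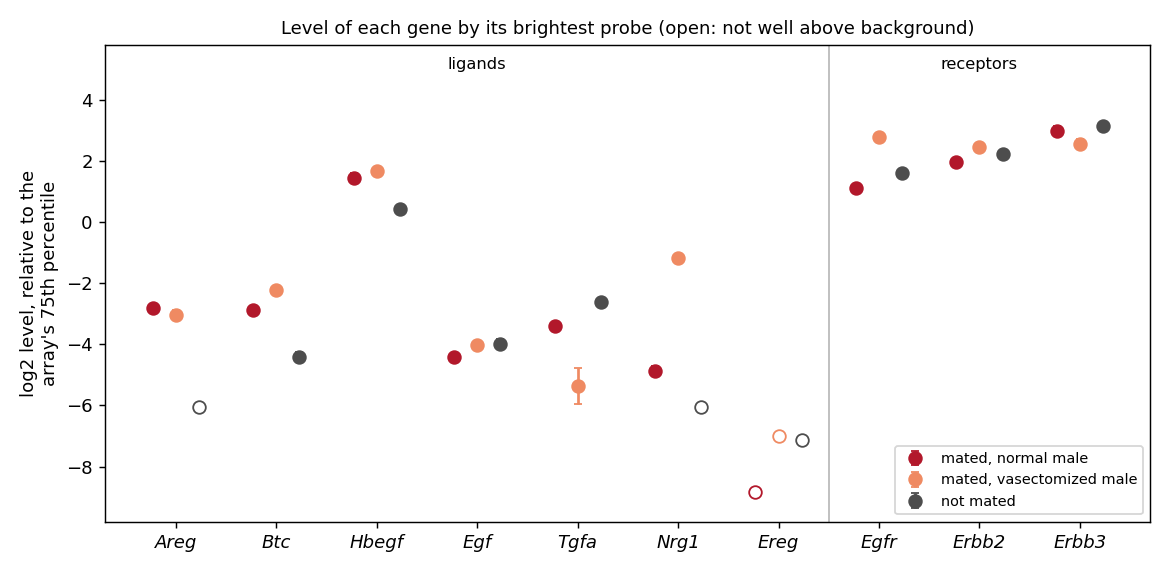
Level of each gene by its brightest probe, as log2 of the multiple of the array's 75th percentile (y axis), for the normal-mated, vasectomized-mated and not mated arrays from left to right. Open circles are not well above background; bars are the SD between replicate spots where there were 10, otherwise the software's error of the spot, and cover measurement only. Areg, Btc and Hbegf are above the not mated array on both mated arrays, an order that spike-in scaling turns on the vasectomized-mated array for Btc and Hbegf, and Ereg is below background throughout.

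Areg had a level of 0.141 after normal mating, 0.120 after vasectomized mating and 0.0153 without mating. The raw signals were 100, 35.5 and 13.3 in that order, each from 1 spot, and the not mated spot was not well above background. Compared with no mating, Areg was therefore higher by at least 9.28-fold after normal mating, and by at least 7.90-fold after vasectomized mating. The difference between the matings was 0.23 on the log2 scale, and the software's error of that ratio, which covers 1 spot and no animals, was 0.216. The bound stayed above 2-fold in all 9 settings that gave one, the main one included, between 1.29 and 3.44 on the log2 scale after normal mating and between 1.69 and 3.07 after vasectomized mating. With spike-in scaling it was 2.61 after normal mating and 0.21 after vasectomized mating. The only probe lies at chr5:91129331-91129390 on the plus strand of build mm7, the build named in the file headers.

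Btc was well above background on all 3 arrays, with levels of 0.136 after normal mating, 0.212 after vasectomized mating and 0.0469 without mating, and signals of 96.3, 62.4 and 40.9. It was 2.90-fold higher after normal mating and 4.52-fold higher after vasectomized mating, with a software error of 0.231 and 0.232 on the log2 ratios of 1.54 and 2.18. Normal mating gave a ratio of -0.64 to vasectomized mating. Spike-in scaling left 0.93 after normal mating, turned the value after vasectomized mating to -0.59 and turned that between the matings to 1.52. A second probe 1083 bases towards the 5′ end had signals of 1.46, 1.36 and 3.10 and was not well above background on any array, so Btc rests on 1 spot per array at chr5:91346189-91346248 (mm7, minus strand).

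Hbegf had signals of 1926 after normal mating, 927 after vasectomized mating and 1169 without mating, far above background everywhere. As levels these were 2.72, 3.15 and 1.34, so the mated arrays were 2.03-fold and 2.35-fold higher. The log2 ratios were 1.02 after normal mating and 1.23 after vasectomized mating, each with a software error of 0.204. The value after normal mating lies on the threshold and passed it in 7 of the 10 settings, over a range of 0.92 to 1.22. The value after vasectomized mating passed in 10 of 10, and with spike-in scaling it was -1.53. The ratio between the matings was -0.21, about the software's error, and 1.95 with spike-in scaling.

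Egf was printed 10 times. Its spots covered levels of 0.0418 to 0.0545 after normal mating, 0.0541 to 0.0690 after vasectomized mating and 0.0522 to 0.0795 without mating. The spots of both mated arrays overlapped by a sliver, and those of the vasectomized-mated array lay within the range of the not mated array. The log2 ratio was -0.44 after normal mating and -0.04 after vasectomized mating, and neither passed 2-fold in any of the 10 settings. With spike-in scaling the ratios were -1.05 and -2.81, and that between the matings turned to 1.76 (main value -0.40).

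Tgfa was the only ligand at least 2-fold lower than without mating at this scaling by the brightest probe, and only after vasectomized mating. Its most 3′ probe, also printed 10 times, had spot levels of 0.0839 to 0.103 after normal mating (9 spots, 1 outlier left out), 0.0123 to 0.0563 after vasectomized mating and 0.155 to 0.179 without mating. The 3 ranges did not overlap, but the spot left out, at 0.158, lies within the range of the not mated array, and with it kept the ratio of normal mated to not mated was -0.71. Without it the log2 ratio was -0.78 after normal mating and -2.76 after vasectomized mating, the last a 6.77-fold lower level, and normal mating exceeded vasectomized mating 3.94-fold. On the vasectomized-mated array the signal averaged 7.72, 6 of the 10 spots were well above background, and the SD between spots was 0.581 on the log2 scale against 0.0661 on the not mated array. With normexp background correction, which adds an offset to dim signals, the ratio after vasectomized mating was -0.21 and that between the matings -0.21. The second probe, 2647 bases towards the 5′ end, gave -0.03 after normal mating. After vasectomized mating it gave at least 1.67-fold lower, with signals of 22.8, 5.53 and 28.8 on the normal-mated, vasectomized-mated and not mated arrays.

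**Figure D2:**
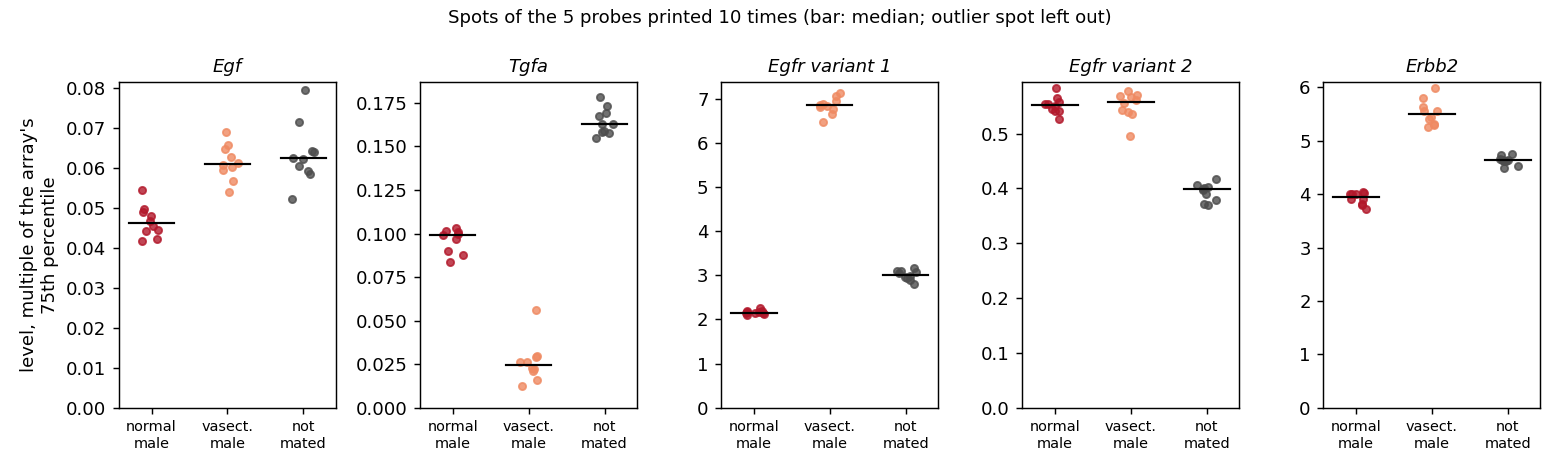
Levels (multiples of the array's 75th percentile, linear axis from 0) of the single spots of the 5 probes printed 10 times, with the normal-mated, vasectomized-mated and not mated arrays from left to right and a bar at the median. Egfr variant 1 and Erbb2 show 3 separate sets of spots, as does Tgfa without its outlier spot on the normal-mated array, at 0.158, whereas for Egfr variant 2 both mated arrays lie together above the not mated one at this scaling.

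Nrg1 gave no single direction. Its brightest probe had a level of 0.0343 after normal mating, 0.439 after vasectomized mating and 0.0151 without mating, the last not well above background. That probe was higher by at least 2.26-fold after normal mating and by at least 29.0-fold after vasectomized mating, and 12.8-fold lower after normal than after vasectomized mating. Of the other 4 probes, 3 were well above background without mating and not after normal mating, which made them at least 2.22-fold, 2.06-fold and 4.14-fold lower after normal mating. After vasectomized mating 1 of these 3 was 9.07-fold higher, 1 had a log2 ratio of 0.25 and 1 was at least 1.84-fold lower. The probes span 33983 bases of chromosome 8 and stand for different transcript records, and the gene is made as many isoforms. The same array that set the high Nrg1 value also had high levels of other transcripts, described below, and their part in it was not tested.

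Ereg was not well above background on any array. Its 2 probes had signals of 1.56 and 1.68 after normal mating, 2.30 and 1.63 after vasectomized mating and 6.29 and 3.32 without mating, so no ratio was formed. One of them stands for a transcript record on the opposite strand from the other. Ereg is the neighbour of Areg, and Epgn, Ereg, Areg and Btc lie in this order on chromosome 5 in the RefSeq annotation of GRCm38.p6. Of these 4 linked genes, Areg and Btc were at least 2-fold higher after either mating at this scaling. Epgn (epigen, an Egfr ligand) had signals of 10.0, 8.01 and 8.35 on the normal-mated, vasectomized-mated and not mated arrays, the last not well above background. At this scaling Epgn was at least 1.79-fold higher after vasectomized mating and had no ratio after normal mating.

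**Figure D3:**
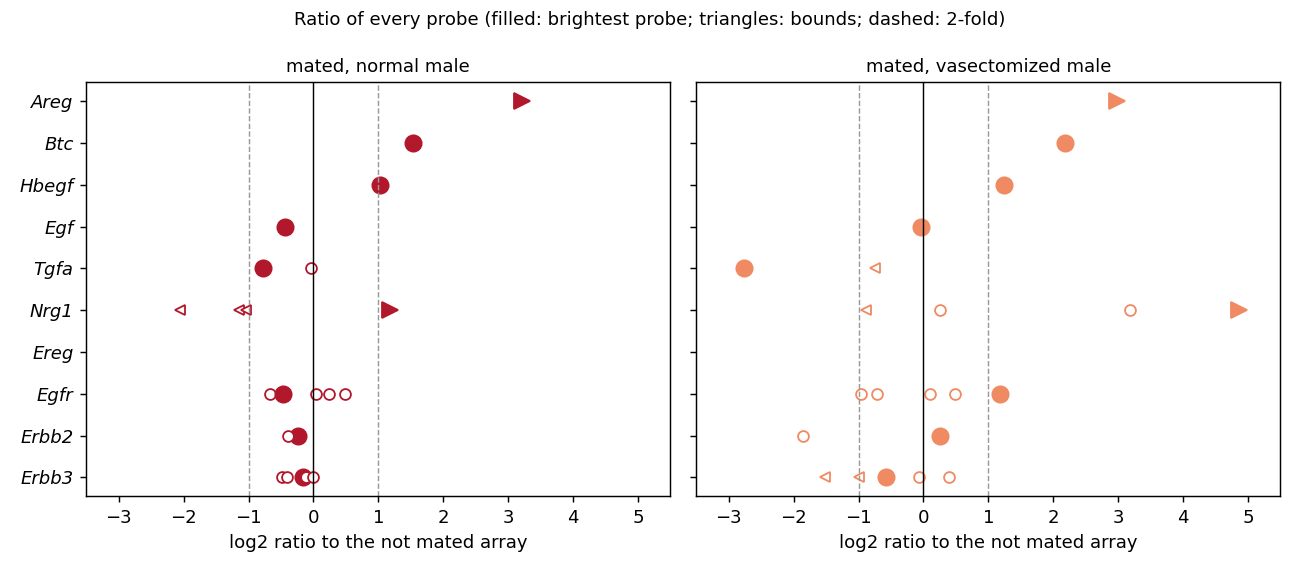
Log2 ratio to the not mated array (x axis) of every probe of each gene (rows), for normal mating (left panel) and vasectomized mating (right panel), scaled to the 75th percentile. Filled symbols are the brightest probe, open symbols the others, triangles bounds and dashed lines 2-fold. Receptor probes lie within 2-fold in the left panel and spread over both sides of 0 in the right one, and Nrg1 probes point both ways; on the spike-in scale the brightest probes of Btc, Hbegf, Egfr and Erbb2 change side in the right panel.

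After normal mating, every receptor probe that could be compared lay within 2-fold of its value without mating. Egfr has 2 transcript variants among its probes. The brightest probe, for variant 1, had spot levels of 2.11 to 2.26 after normal mating, 6.46 to 7.12 after vasectomized mating and 2.81 to 3.16 without mating, and the 3 ranges did not overlap. Its log2 ratio was -0.47 after normal mating and 1.19 after vasectomized mating, a 2.28-fold higher level, and normal mating was 3.16-fold below vasectomized mating. The other probe of variant 1, 1 position nearer the 5′ end, gave 0.24 after normal mating and -0.97 after vasectomized mating, the opposite direction in both. The probe of variant 2 that was printed 10 times had spot levels of 0.526 to 0.583 after normal mating, 0.495 to 0.578 after vasectomized mating and 0.371 to 0.417 without mating. It was 1.40-fold above the not mated array after both matings, and the matings differed by 0.00. A second variant 2 probe gave 0.03 and -0.71. The most 3′ probe of the gene, which stands for another transcript record, gave -0.67 after normal mating and 0.09 after vasectomized mating. The Egfr call after vasectomized mating thus rests on 1 of 5 probes with a ratio, and with spike-in scaling it was -1.58.

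Erbb2 had spot levels of 3.72 to 4.05 after normal mating, 5.25 to 5.98 after vasectomized mating and 4.50 to 4.74 without mating by its most 3′ probe. The spots did not overlap between arrays, yet the log2 ratios of -0.24 and 0.25 were small and passed 2-fold in none of the 10 settings. With spike-in scaling they were -0.85 and -2.51. The probe 2279 bases towards the 5′ end gave -0.39 after normal mating and -1.86 after vasectomized mating, with signals of 121, 18.3 and 197 on the normal-mated, vasectomized-mated and not mated arrays. The 3′ and the 5′ probe of Erbb2 thus differed by over 2-fold on the vasectomized-mated array, as did the ratios of 48.5% of transcripts there.

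Erbb3 had signals of 5594 after normal mating, 1741 after vasectomized mating and 7698 without mating at its most 3′ probe. The levels were 7.90, 5.91 and 8.81, and the log2 ratios -0.16 after normal mating and -0.58 after vasectomized mating. The other 4 probes, which stand for a different transcript record, had signals of 49.4 or less on every array. They gave -0.48 to -0.01 after normal mating, all below 0. After vasectomized mating 2 of them gave -0.07 and 0.39 and 2 were at least 2.87-fold and 1.98-fold lower.

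**Figure D4:**
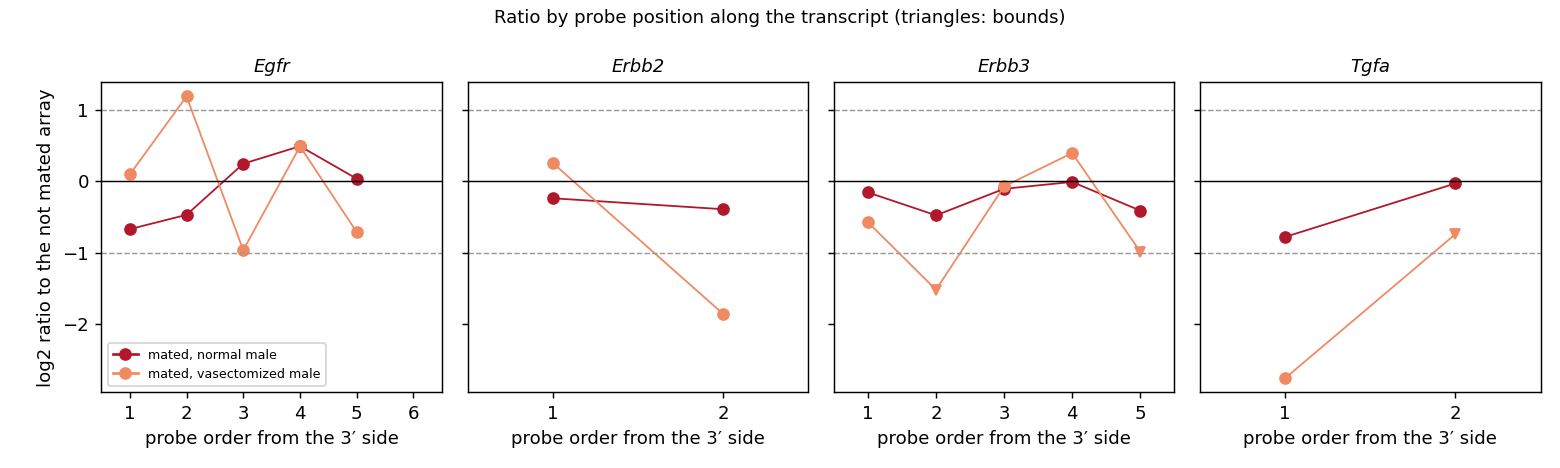
Log2 ratio to the not mated array (y axis) of the probes of Egfr, Erbb2, Erbb3 and Tgfa in their order from the 3′ side of the gene (x axis), after normal mating and after vasectomized mating. Lines join the probes of a gene, triangles are bounds, and the sixth Egfr probe has no ratio. The line for normal mating stays between -0.78 and 0.49, while that for vasectomized mating runs between -2.76 and 1.19.

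Set against each other, normal mating was at least 2-fold above vasectomized mating for 1 member, Tgfa, and below it for Egfr and Nrg1, with 6 of 9 within 2-fold. Over all 18990 genes compared, 14.7% were higher and 28.0% lower after normal mating. Areg, Btc, Hbegf, Egf, Erbb2 and Erbb3 were within 2-fold, with log2 ratios of 0.23, -0.64, -0.21, -0.40, -0.49 and 0.42. With spike-in scaling all 6 were at least 2-fold higher after normal mating, at 2.39, 1.52, 1.95, 1.76, 1.67 and 2.58 in the same order of genes, and Btc, Hbegf, Egf and Erbb2 thus turned. With Tgfa that made 7 members higher, Egfr turned to 0.50, Nrg1 remained lower at -1.52, and the median of all genes was 1.88 at that scaling (main value -0.27). Over all genes, 15316 of 19509 were then higher and 255 lower.

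The family has 7 further genes on the list used, of which 6 were on the array under their names. Erbb4, the receptor shared by Btc, Hbegf and the neuregulins, had signals of 630 after normal mating, 487 after vasectomized mating and 679 without mating. Its log2 ratio was 0.19 after normal mating and 1.09 after vasectomized mating, and -0.41 and -1.68 with spike-in scaling. Nrg4, an Erbb4 ligand, was at -0.55 and 1.54, and at -1.16 and -1.23 with spike-in scaling. At the main scaling, normal mating was 4.25-fold below vasectomized mating. Tdgf1, a Nodal co-receptor with an EGF-like domain, had signals of 9.01, 55.8 and 11.3 and was at least 12.5-fold higher after vasectomized mating. Cfc1, its relative, stayed within 2-fold at -0.48 and -0.14, and Nrg3 was not well above background on any array. In all, 0 of the 3 compared after normal mating and 3 of the 5 compared after vasectomized mating were at least 2-fold higher, beside 9.81% and 25.8% of all genes. With spike-in scaling 0 of 3 and 0 of 4 were higher, and 2 and 3 lower. Of all genes, 948 and 196 were then higher, and 6189 of 18904 and 16684 of 18670 lower.

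Ligand shedding was covered by 9 genes, of which 8 could be compared. After normal mating 2 were higher and 1 lower, with a median of 0.27, beside 9.81% and 13.2% of all genes. Adam8, a protease of leukocytes, was 2.92-fold higher, and Adam10, the main sheddase of Egf and Btc, was 2.52-fold higher, with signals of 134 after normal mating, 17.7 after vasectomized mating and 65.7 without mating. Adam19 was 2.06-fold lower. Adam17, outside the naming rule, was within 2-fold, at 0.28 after normal mating and -0.09 after vasectomized mating on the log2 scale. After vasectomized mating Adam9 was 3.67-fold higher and Rhbdf1, an inactive rhomboid that carries the sheddase Adam17 to the surface, was 4.42-fold lower. The other 6 were within 2-fold by the brightest probe, among them Adam15 at 0.98 and Adam19 at 0.69 on the log2 scale. The second probe of Adam15 gave -2.615. The median of the list was 0.47, where 25.8% of all genes were higher and 16.5% lower.

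Of 27 signal transduction genes compared, 24 were within 2-fold after normal mating, with a median of 0.03. Of the rest 1 was higher and 2 lower, where 9.81% and 13.2% of all genes passed the threshold. Eps8, an Egfr substrate, was 2.12-fold higher. Stat5a was 2.54-fold lower, and the kinase gene Braf was 2.45-fold lower by its brightest probe, while its 6 probes ran from -1.29 to -0.10. After vasectomized mating 4 were higher and 8 lower, with a median of 0.09, beside 25.8% and 16.5% of all genes. The adaptor Grb2 was 3.38-fold lower. The exchange factor Sos2 was 4.02-fold and the adaptor Nck1 3.37-fold higher, with Hras and Pik3r1, outside the naming rule, at 1.31 and 1.09 on the log2 scale. The 3 probes of Nck1 ran from 0.10 to 1.91. Braf was 7.34-fold lower by its brightest probe, while its 6 probes ran from -2.88 to 0.34. The other 6 lower genes, outside the naming rule, were Gab1, Akt1, Src, Mapk3, Map2k2 and Pik3ca, with log2 ratios of -1.72, -1.67, -1.42, -1.37, -1.17 and -1.13.

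The inhibitors of Egfr and ERK signalling include genes that the pathway itself induces, such as the Dusp and Spry genes, and others, such as Cbl and Rasa1, that are not known for it. After normal mating 3 of 19 were higher and 3 lower, with a median of -0.46, where 9.81% and 13.2% of all genes passed the threshold. Dusp4 was 4.29-fold, Socs3 2.96-fold and Dusp6 2.55-fold higher, the Dusp genes encoding phosphatases of ERK and related kinases. Errfi1, which encodes a direct inhibitor of the Egfr kinase, was 2.12-fold lower, and Spry4 was at least 2.05-fold lower. The third lower gene, Lrig3, had a log2 ratio of -1.05 and is named because it completes the count. After vasectomized mating 3 of 18 were higher and 3 lower, with a median of -0.09, beside 25.8% and 16.5% of all genes. Socs3 was 6.74-fold and Dusp6 5.34-fold higher, while Spred2 was 4.94-fold and Errfi1 3.50-fold lower. The second probe of Spred2 gave -0.73 on the log2 scale. The counts are completed by Cblb at 1.09 and Cbl at -1.33 on the log2 scale, both outside the naming rule.

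Among 16 immediate early and ERK target genes, 4 were higher and 2 lower after normal mating, with a median of 0.19, beside 9.81% and 13.2% of all genes. Plaur, the urokinase receptor, was 6.06-fold higher and Fos 3.33-fold higher, and the count is completed by Junb and Ier3, outside the naming rule, at 1.14 and 1.39 on the log2 scale. Etv5 was 5.04-fold lower, with signals of 10.6 after normal mating and 65.7 without mating, and Myc was 2.70-fold lower. After vasectomized mating 5 were higher and 1 lower, with a median of 0.50, beside 25.8% and 16.5% of all genes. Junb was 9.46-fold higher, Jun 2.58-fold, Plaur 2.45-fold and Phlda1 2.11-fold higher, and Fosl1 at least 2.09-fold. The second probe of Plaur gave 0.56 on the log2 scale. Etv5 was at least 3.81-fold lower. Fos had signals of 1210 after normal mating, 232 after vasectomized mating and 451 without mating.

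**Figure D5:**
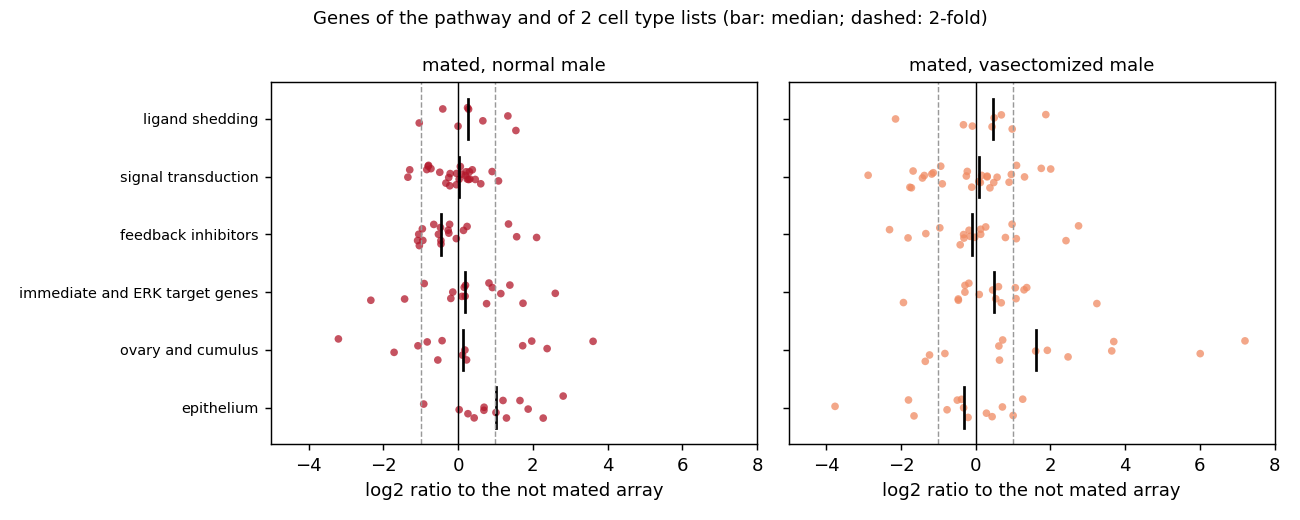
Log2 ratio to the not mated array (x axis) of each gene of 4 pathway lists and 2 cell type lists (rows), after normal mating (left) and vasectomized mating (right), scaled to the 75th percentile, with a bar at the list's median and dashed lines at 2-fold. Medians of the pathway lists lie between -0.46 and 0.50, while the epithelium list has its median at 1.01 on the left and the ovary and cumulus list at 1.61 on the right.

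Markers of cell types also differed between the arrays, some in the direction of the ligands and some against it. The counts of all these lists stand beside shares of 9.81% of all genes higher and 13.2% lower after normal mating. After vasectomized mating the shares were 25.8% and 16.5%. In bulk tissue, fewer cells of a type and less RNA per cell cannot be told apart. Epithelial markers, all 13 well above background on every array, summed to a level of 1170 after normal mating, 719 after vasectomized mating and 775 without mating, and 7 of 13 were at least 2-fold higher after normal mating (Muc1 7.02-fold and Cldn4 4.85-fold). After vasectomized mating 2 were higher and 3 lower, with Pax8 13.6-fold (by its brightest probe) and Krt19 3.48-fold lower, while Areg, Btc and Hbegf were higher than without mating at this scaling. The second probe of Pax8 gave -0.72 on the log2 scale after vasectomized mating. Neutrophil markers summed to 356, 157 and 97.7 on the normal-mated, vasectomized-mated and not mated arrays, of which Ltf, also an epithelial secretory gene, made 225, 57.9 and 96.3. Without Ltf the sums were 131, 98.9 and 1.44. Of 10 compared, 9 were higher after each mating, and Ltf itself was at -0.73 after vasectomized mating. S100a9 was 497-fold higher after normal mating and 742-fold higher after vasectomized mating. Ngp and Elane were not well above background on any array, and S100a8, Cxcr2 and Camp not on the not mated array. Macrophage markers summed to 120, 93.5 and 27.7, and to 11.8, 32.2 and 9.90 without Cd14. Their counts were 3 of 10 higher and 1 lower after normal mating (Cd68 7.68-fold and Cd14 6.06-fold higher, median -0.02) and 5 higher and 1 lower after vasectomized mating (Adgre1 13.3-fold and Mrc1 6.54-fold higher, median 0.80). Csf1r, C1qa, C1qb and C1qc were at -0.94, -1.06, -0.81 and -0.86 after normal mating.

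Ovarian and cumulus markers, the setting in which Areg, Ereg and Btc are best known, summed to 1.63 after normal mating, 7.12 after vasectomized mating and 1.95 without mating. Of 18 on the array, 4, 5 and 10 were not well above background in that order of arrays. Fshr, Lhcgr, Zp2 and Nlrp5 were not above background on any array, and Ereg was not either. After normal mating 4 of 13 were higher and 3 lower, with Oosp1, an oocyte gene, at least 12.2-fold higher and Has2, a cumulus matrix enzyme, 9.20-fold lower. After vasectomized mating 7 were higher and 2 lower, with Oosp1 at least 64.3-fold and the steroid enzyme Cyp11a1 at least 148-fold higher. Stromal markers had 8 of 13, smooth muscle 4 of 9 and endothelial markers 6 of 8 lower and none higher after normal mating, with medians of -1.20, -0.96 and -1.78. Hoxa11 was 11.5-fold, Hoxa10 7.40-fold, Synpo2 4.02-fold, Myh11 3.70-fold, Pecam1 4.69-fold and Tie1 3.94-fold lower. After vasectomized mating 4 of 13 stromal markers were higher and none lower (Col3a1 5.10-fold by its brightest probe and Lum 3.49-fold higher). The 3 probes of Col3a1 ran from -0.007 to 3.446 on the log2 scale. In the same comparison smooth muscle had 3 higher and 3 lower (Lmod1 7.24-fold and Tagln 4.85-fold higher). Endothelium had 1 higher and 4 lower, with Tek 5.07-fold lower and Cdh5 5.43-fold higher, both by the brightest probe. The second probe of Tek gave -0.41 and that of Cdh5 -2.67 on the log2 scale. With spike-in scaling, neutrophil markers still had 7 higher and 0 lower after normal mating and 3 higher and 2 lower after vasectomized mating. Epithelial markers had 4 higher and 1 lower after normal mating and 13 of 13 lower after vasectomized mating. Macrophage markers then had 3 higher and 4 lower after normal mating, and 0 higher and 7 lower after vasectomized mating. For ovarian and cumulus markers these counts were 4 and 6, then 2 and 6. No stromal, smooth muscle or endothelial marker was higher after either mating. Lower, in that order of lists, were 9, 8 and 8 after normal mating and 11, 7 and 7 after vasectomized mating. Of the shedding, transduction, inhibitor and target lists together, 3 of 70 genes were then higher and 22 lower after normal mating. After vasectomized mating none was higher and 64 of 69 were lower. Over all genes at that scaling, 948 of 18904 were higher and 6189 lower after normal mating. After vasectomized mating 196 of 18670 genes were higher and 16684 lower. The part of these shifts in the values of the ligands and receptors was not tested.

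The genes whose pair of log2 ratios lay nearest to those of Btc, among 17206 genes well above background on all 3 arrays, were Glb1l2, Plaat1 and Mroh3, at distances of 0.0289, 0.0289 and 0.0539. Nearest to Tgfa were Mccc2, Abhd12 and BF165830, at 0.0132, 0.0720 and 0.128. The likeness is over 3 arrays only.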

How the data were processed

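Each array was hybridised in 1 colour (Cy3) on an Agilent mouse design. The deposited intensities are linear processed signals that the authors obtained with Agilent Feature Extraction, background-subtracted within an array and with no scaling across arrays, per the file headers. Version 10.5.1.1 stands in the headers and 9.5.3 in the submitters' processing notes. Controls left aside, 43379 of the 45018 spots per array were used, and none was saturated.

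From the deposited intensities, log2 values were computed here and the 75th percentile of non-control spots was subtracted. Spots with outlier flags were left out, and spots of a probe were averaged. A probe counted as well above background where at least 0.5 of its spots did. The probe of highest mean signal stood for a gene, with preference for probes that any array measured well above background. With 1 of 2 arrays above background the ratio is a bound, computed against the higher of the probe's own value and the lowest value well above background on that array. With neither there is no ratio. The threshold was 2-fold. With 1 array per group, the number of arrays limits the precision, so neither p-values nor standard errors are printed. The median SD of log2 signal between replicate spots was 0.0527, 0.0637 and 0.0573 on the normal-mated, vasectomized-mated and not mated arrays, over 189, 181 and 186 probes.

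Names came from RefSeq (GRCm38.p6): 22944 probes matched by accession, 6664 by symbol and 3108 by synonym, and 8458 kept the name in the files. All 27 probes of the family ended with the name the files give. Where RefSeq did not hold a probe's transcript record, the name came from the files, so the match was fixed in advance. Sequences are credited to RefSeq. Named list genes are, per pathway list and comparison, the 4 largest absolute log2 ratios with both arrays above background plus bounds past 2-fold, all further family genes, and the 2 largest per cell type list. Nearest genes are by Euclidean distance of the 2 log2 ratios to the not mated array. The members, the lists and the tests were chosen with earlier results of these data known. The counting was tested on simulated data. Software was R 4.3.3, limma 3.58.1, data.table (version 1.17.8), and, in Python 3.11.15, pandas 2.3.3, numpy 2.4.6 and matplotlib 3.10.9. Alternatives were quantile, cyclic loess, median and other percentile scaling, normexp (offset 50), both filters on dim probes, the median over probes, and outlier spots kept. Spike-in scaling (also of the lists), every other probe, and list sums without the largest gene were added after seeing the data.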

Additional observations from a re-analysis of the deposited data

Results flagged for a closer look

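For 2 receptors the matings lay on opposite sides of the not mated array. Egfr had a log2 ratio of -0.472 after normal mating and 1.186 after vasectomized mating, and Erbb2 -0.24 and 0.254, both by the brightest probe. Each value is 1 array against the same not mated array, and the difference was not tested. With spike-in scaling both genes were below 0 after both matings, Egfr at -1.078 and -1.581 and Erbb2 at -0.846 and -2.513.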

How the results depend on the processing

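No paired analysis was possible because each group had 1 array, and no array could be left out. In the 10 settings that include the main one (9 for Areg, which has no ratio where both arrays must be above background), Areg after either mating, and Btc and Hbegf after vasectomized mating, kept their direction and stayed past 2-fold, while Egf, Erbb2 and Erbb3 passed 2-fold in none. Btc passed in 9 of 10 after normal mating. With normexp the members at least 2-fold higher numbered 1 after normal mating over not mated (main 4) and 0 for normal over vasectomized mating (main 1), those lower after vasectomized mating 0 (main 1), and Tgfa turned to -0.207 for normal over vasectomized mating. Counting only genes above background on both arrays gave 2 higher after normal mating and 3 after vasectomized mating (main 5). By the median over probes 1 was lower after normal mating over not mated (main 0) and 1 lower for normal over vasectomized mating (main 2), Egfr turned to 0.002 for normal over vasectomized mating and Nrg1 to -1.095 for normal mating over not mated. Without the filter on dim probes 1 member was lower after normal mating.

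With spike-in scaling, added after seeing the data, members higher numbered 1 after normal mating, 1 after vasectomized mating and 7 for normal over vasectomized mating, and members lower numbered 3, 6 and 1. After vasectomized mating Btc turned to -0.591, Egfr to -1.581 and Hbegf to -1.534, and Egfr turned to 0.503 for normal over vasectomized mating. Other probes of Egfr that turned gave 0.002, 0.747 and 1.21 for normal over vasectomized mating and -0.714 and -0.966 after vasectomized mating. The most 3′ probe of Egfr kept the direction, at -0.766 and 0.093 in the same order of comparisons. Other probes of Nrg1 gave -1.148, -2.049 and -1.041 after normal mating and -0.878 after vasectomized mating. The cause of these changes was not tested.

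All genes at least 2-fold higher after normal mating numbered 1894, against 2547 lower. The split was 2201 to 1960 with cyclic loess, 2061 to 2075 with quantile normalization, 2385 to 1825 with median scaling, 1368 to 933 with normexp and 948 to 6189 with spike-ins. After vasectomized mating 4989 were higher and 3193 lower, 5769 and 1717 with normexp and 196 and 16684 with spike-ins. For normal over vasectomized mating 2791 were higher and 5311 lower, 3345 and 4428 with cyclic loess, 1703 and 5175 with normexp, 3277 and 11120 without the filter on dim probes and 15316 and 255 with spike-ins. Areg, Nrg1 and Ereg have arrays on which their brightest probe was not well above background, and Tgfa has 1 where 6 of 10 spots were.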
